A study of Mus musculus with 3 samples.

Results

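The genes described are the heat shock proteins and molecular chaperones of adult mouse cardiomyocytes (ACMs). They were chosen by symbol, as protein-coding genes of the count table whose names begin with Hsp, Dnaj, Cct and a digit, or Bag and a digit, leaving out the matrix proteoglycan gene Hspg2. The rule gave 90 of the 56748 genes in the table. It uses no measured value, though it was set with earlier results of these data known. ACMs were isolated from wild-type (WT) mice aged 8 to 10 weeks, plated on laminin, and held for 16 h in serum-free medium with the myosin inhibitor butanedione monoxime. They received vehicle (0.1% BSA), 10 ng/mL human IL-6 or 10 ng/mL mouse oncostatin M (OSM), all in medium with 0.1% BSA. RNA was pooled before sequencing, so that each of the 3 conditions is 1 library and no spread between replicates can be estimated. The paper used sequencing to find genes that OSM induces, as candidate effectors of JAK1 and STAT3. No library comes from cells that lack JAK1, so dependence on JAK1 was not tested here.

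Chaperones bind unfolded or partly folded proteins and keep them from aggregating. HSP70 proteins hold short exposed stretches and release them in cycles of ATP hydrolysis, which DNAJ proteins (HSP40) start and nucleotide exchange factors such as the HSP110 and BAG proteins end. HSP90 acts late on kinases, receptors and other clients, the ring-shaped chaperonins HSP60 and TRiC enclose their clients, and small HSPs hold damaged proteins without ATP. In the heart small HSPs and BAG3 are best known for guarding the sarcomere and its filaments. Heat and protein damage raise many of these genes through heat shock factor 1, whereas chaperones of the endoplasmic reticulum (ER) follow the unfolded protein response.

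Total counts were 24939980 with vehicle, 26362446 with IL-6 and 30773001 with OSM. All 7 cardiomyocyte markers were detected in every library, with summed levels of 8504, 8782 and 10990 FPKM (fragments per kilobase of gene, scaled to library size) in that order. The 5 endothelial markers summed to between 5.92 and 6.24 FPKM, the 5 fibroblast markers to between 0.642 and 1.03 FPKM, and the 5 smooth muscle and pericyte markers to between 13.4 and 15.8 FPKM. The 5 macrophage markers summed to 13.4 FPKM with vehicle, 14.2 with IL-6 and 39.1 with OSM, nearly all of it Cd68, and 2, 3 and 2 of them were at 0. Of the 7 cardiomyocyte markers, 2 were called lower with OSM at 2-fold, against 5.46% of all compared genes. Of the 5 macrophage markers, 1 was called higher, against 3.70%. In bulk RNA a change in the number of cells of a type cannot be told apart from a change in RNA per cell, and the part of cell makeup in the results was not tested.

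Upstream sequences are shown for the member with the largest difference, and for examples of members that carry a motif known from stress or cytokine responses. No link between the motifs and the differences was tested. They were read from the GRCm39 genome immediately 5′ of the start of the canonical transcript in GENCODE M39, where each of the 90 members has a gene on the same strand. Windows of 300 bases were searched on both strands for the heat shock element GAANNTTCNNGAA, the STAT site TTCNNNGAA and the ER stress element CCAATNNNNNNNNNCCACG. Capitals mark a match, and for members with a match only the 30 bases around it are shown.
Hspb1, chr5:135916460-135916759, plus strand: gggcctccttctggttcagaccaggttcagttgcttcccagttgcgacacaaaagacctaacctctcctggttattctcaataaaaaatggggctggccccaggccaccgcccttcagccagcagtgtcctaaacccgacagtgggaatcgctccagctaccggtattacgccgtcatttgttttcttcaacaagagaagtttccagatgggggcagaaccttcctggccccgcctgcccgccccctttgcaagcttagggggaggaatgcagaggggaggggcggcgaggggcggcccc
Hspe1, chr1:55127212-55127241, plus strand: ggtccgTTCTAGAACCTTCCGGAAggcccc
Hspa5, chr2:34662032-34662061, plus strand: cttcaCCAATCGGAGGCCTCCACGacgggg
Hsp90b1 distal, chr10:86541496-86541525, minus strand: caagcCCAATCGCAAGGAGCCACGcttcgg
Hsp90b1 proximal, chr10:86541391-86541420, minus strand: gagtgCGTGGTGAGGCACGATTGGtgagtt
Dnajc3, chr14:119175234-119175263, plus strand: cacaaCCAATCAGCGCCAACCACGacccgg
Cct5, chr15:31602041-31602070, minus strand: cccccctcggTTCGTGGAAaacggacgttc
Dnajc13, chr9:104140244-104140273, minus strand: cacgcggcgcTTCCCGGAAgacggcgaatg

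The Hspb1 window held none of the 3 motifs in these exact letters. The heat shock element was in the windows of 2 of 90 members (2.22%), Hspd1 and Hspe1, which are transcribed away from each other and share the region shown for Hspe1, and in 0.481% of 21629 protein-coding windows. There 2 overlapping matches of the motif lie between 73 and 56 bases upstream of Hspe1. The ER stress element was in 3 members (3.33%), Hspa5, Hsp90b1 and Dnajc3, all of which encode ER proteins, and in 0.116% of all windows. The STAT site was in 6 members (6.67%), Cct5, Cct6b, Dnajc12, Dnajc13, Dnajc16 and Dnajc27, and in 9.23% of all windows. A match describes these letters only, and a window without one says nothing about binding.

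Chaperone mRNAs were abundant in these cells. The 90 members held 2.68% of all counts with vehicle, 2.75% with IL-6 and 2.87% with OSM. Without Hspb1 these shares were 2.64%, 2.72% and 2.71%. With vehicle, 75 members reached 1 FPKM, 16 reached 100 FPKM and 2 reached 1000 FPKM. The highest were Hspa5 (BiP, the HSP70 of the ER) at 1278 FPKM and Hspb7, a small HSP of heart and skeletal muscle, at 1040 FPKM. Hsp90ab1, the constitutive cytosolic HSP90, followed at 739 FPKM, Hspb6 (HSP20) at 602, Hsp90b1 (GRP94, the HSP90 of the ER) at 475 and Hspb8 (HSP22) at 467. The mitochondrial HSP70 Hspa9 was at 436 FPKM, Hspb1 (HSP25) at 349, the constitutive cytosolic HSP70 Hspa8 at 329 and the ER DNAJ gene Dnajb9 at 205. A further 6 members had 0 counts in all 3 libraries, Dnajb7, Dnajb8, Dnajb13, Dnajc5b, Dnajc6 and Dnajc22, and a count of 0 allows up to 3 counts, which is 0.120 CPM (a count scaled to library size) at the depth of the vehicle library.

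**Figure D1:**
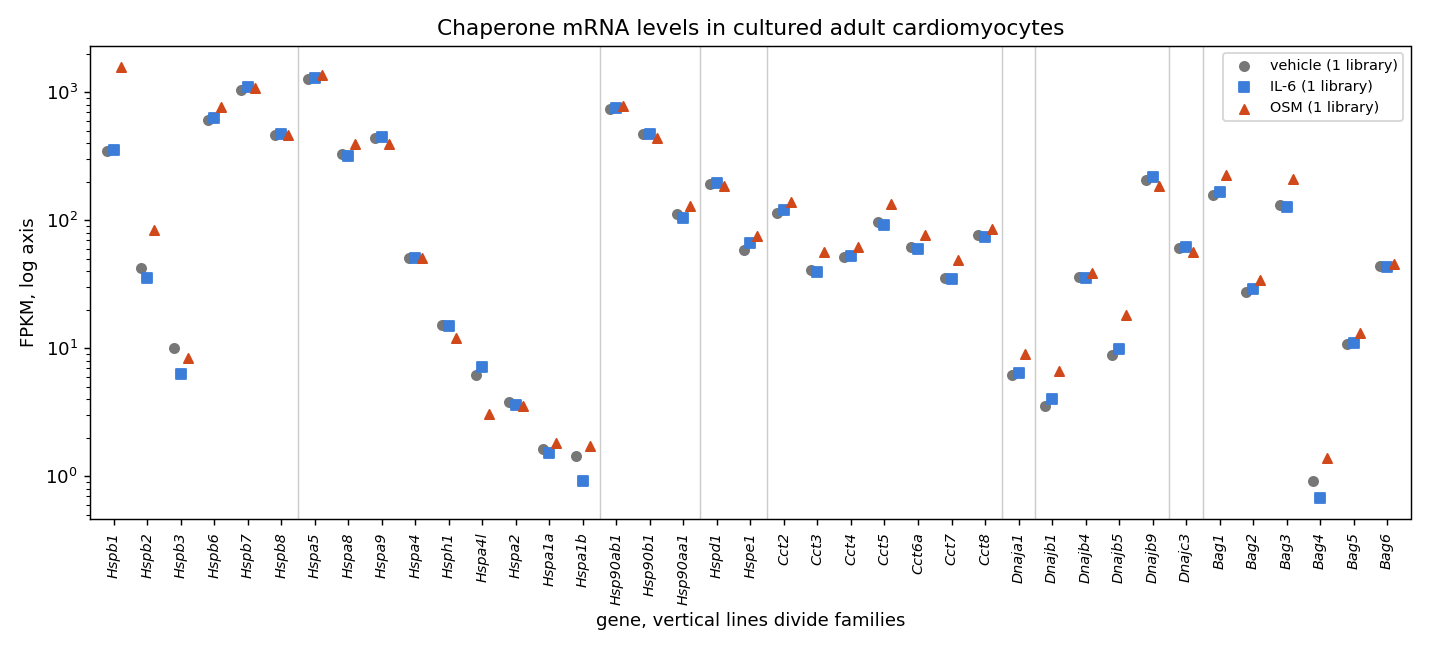
Level (FPKM, log axis) of named chaperone genes in the vehicle, IL-6 and OSM libraries, 1 point a library, with vertical lines between families. Levels run from about 1 FPKM for Bag4 and Hspa1b to 1278 FPKM and more for Hspa5, and the OSM point of Hspb1 stands at 1563 FPKM above 349 and 352.

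Members were compared where a pair of libraries held at least 10 counts, which left 80 for OSM against vehicle. Fold changes are given on the log2 scale, from counts scaled by TMM (trimmed mean of M-values), with a 95% interval that covers counting error only. A gene was called at 2-fold, or at 1.5-fold, where the whole interval lay beyond that fold. Besides the 6 members without counts, Cct6b, Cct8l1, Dnajb3 and Dnajc5g fell short of the minimum, with at most 4 counts with vehicle and with OSM.

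With OSM, 1 of 80 members was called higher than with vehicle at 2-fold, Hspb1, against 3.70% of all 15537 compared genes. No member was called lower at 2-fold (0 of 80), against 5.46% of all genes. At 1.5-fold, 5 members were called higher (Hspb1, Hspb2, Dnajb5, Dnajb1 and Bag3), against 8.55% of all genes, and 5 lower (Hspa4l, Hspa12a, Hspa12b, Dnajc13 and Dnajc28), against 12.0%. The members' shares were thus not above those of all genes. The median log2 fold change over the 80 members was 0.10, with 47 above 0 and 33 below, and that of all compared genes was -0.00. When replicate variation was assumed rather than measured, at a biological coefficient of variation (BCV) of 0.4, edgeR's exact test called 0 members, so that the call of Hspb1 rests on libraries of a group varying by less than this. These calls compare the libraries, not the conditions.

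**Figure D2:**
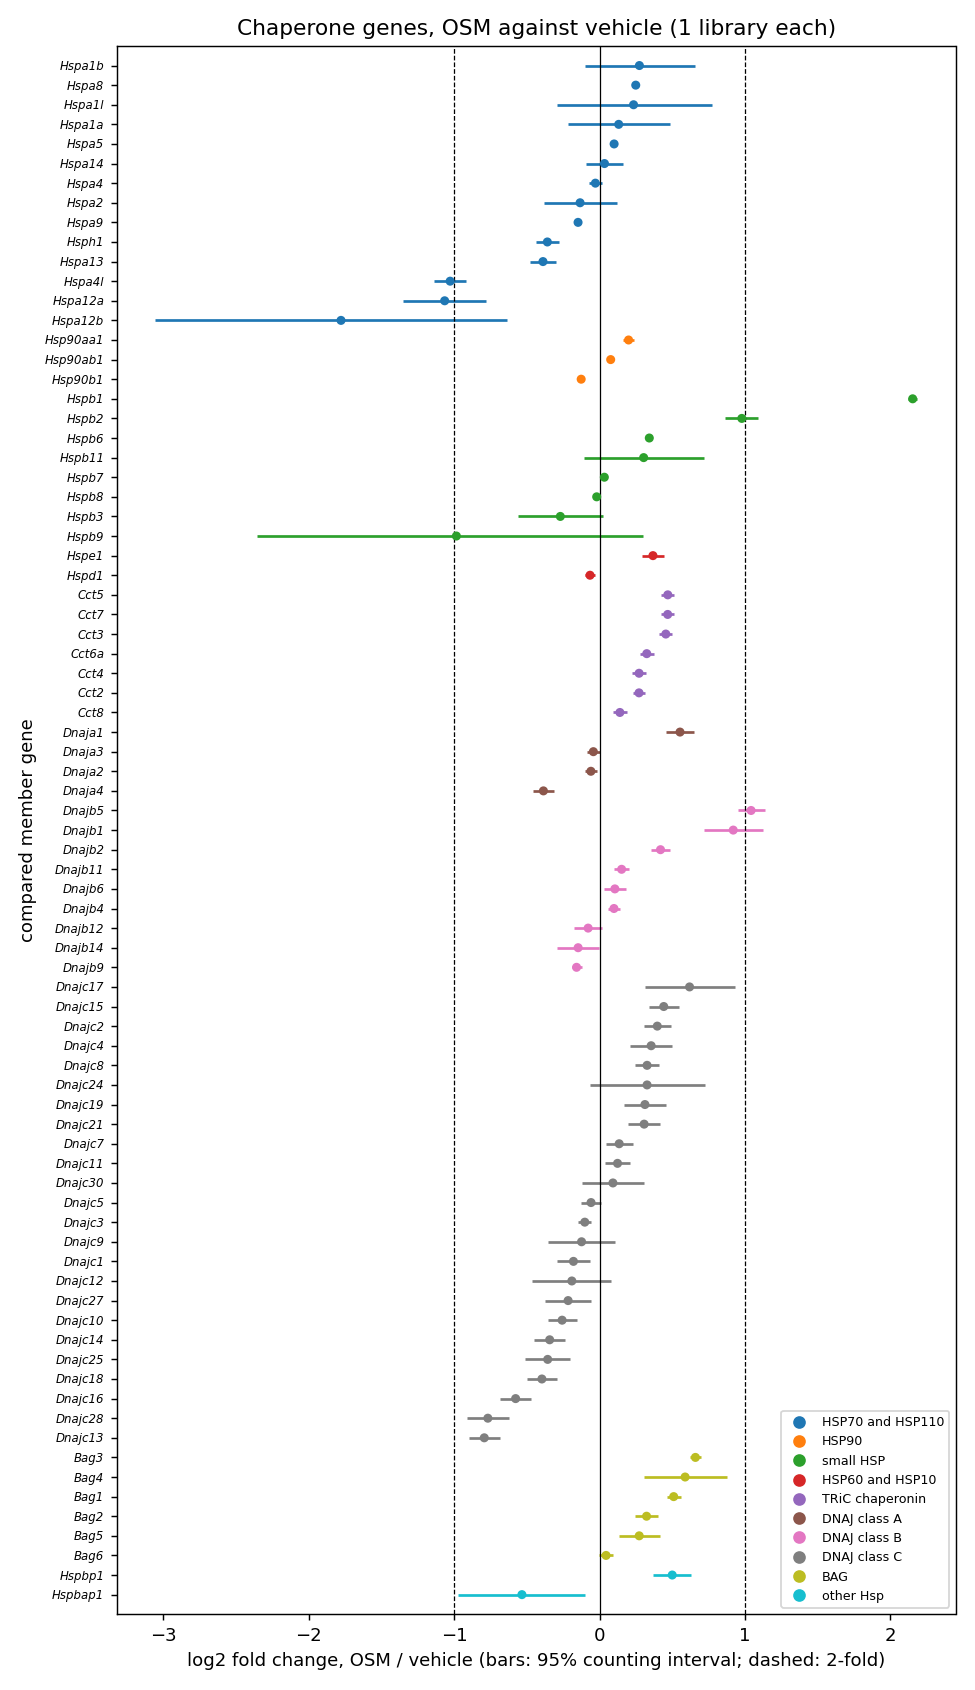
Log2 fold change of OSM over vehicle for compared chaperone genes, grouped by family, with bars for the 95% counting interval and dashed lines at 2-fold. Hspb1 at 2.15 lies alone on the right, Hspa4l, Hspa12a and Hspa12b lie furthest to the left, and the TRiC and BAG members lie at or to the right of 0.

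Hspb1 differed most. It encodes HSP25, a small HSP that binds unfolded proteins and actin and is phosphorylated under stress. The gene has 3 exons and lies at chr5:135916773-135918417 on the plus strand (GRCm39). It had 9114 counts with vehicle, 9835 with IL-6 and 48143 with OSM, or 349, 352 and 1563 FPKM. The OSM library was high, and the other libraries lay within counting error of each other. The OSM level was 4.45-fold that of vehicle (log2 2.15, interval 2.12 to 2.19), and the IL-6 level differed from vehicle by a log2 fold change of 0.01 (-0.03 to 0.05). Against IL-6 the OSM level was higher by 2.15 on the log2 scale (2.12 to 2.18). Among members Hspb1 moved from the eighth highest FPKM with vehicle to the highest with OSM, and among all genes from rank 103 to rank 25. Its share of the summed small HSP level was 13.9% with vehicle, 13.5% with IL-6 and 39.5% with OSM. Nearly the whole Hspb1 transcript (89.0%) has a copy of at least 97% identity elsewhere in the genome. The genes annotated at these copies are the processed pseudogene Hsp25-ps1 and Gm9817. Hsp25-ps1 had 28, 29 and 100 counts, so that few reads were assigned to it, and counts of Gm9817 are not given.

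The other small HSPs differed less, and those below vehicle with OSM had intervals that covered 0. Hspb2, a muscle small HSP, had 896 counts with vehicle, 798 with IL-6 and 2096 with OSM. Its difference between OSM and vehicle was 0.98 on the log2 scale (0.87 to 1.09), which is short of the call at 2-fold. It overlaps Cryab on the opposite strand by 1030 bases. Cryab encodes alphaB-crystallin, the best known small HSP of the heart, which the symbol rule leaves out. It had 56207, 59468 and 149051 counts (1502, 1484 and 3374 FPKM) and a log2 fold change of 1.16 (1.15 to 1.17), and was called higher with OSM at 2-fold. Cryab reads outnumber those of Hspb2, and no source used here states whether strand entered the counting, so that the Hspb2 values are uncertain. Hspb6, which encodes HSP20, had 602, 634 and 768 FPKM (log2 0.34). Hspb7 had 1040, 1103 and 1070 FPKM (log2 0.03), and Hspb8, whose protein works with BAG3 in clearing damaged filament proteins, had 467, 470 and 463 FPKM (log2 -0.02). Those last genes, abundant in every library, thus differed little with OSM. Hspb3 was at 9.97, 6.33 and 8.32 FPKM on 134 to 197 counts (log2 -0.27, -0.56 to 0.02, for OSM against vehicle). Hspb11, a part of the ciliary transport machinery despite its name, had an interval that covered 0. Hspb9 was near its limit of detection, with 15, 11 and 9 counts (log2 -0.98, -2.36 to 0.30, for OSM against vehicle).

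The cytosolic heat-inducible HSP70 genes stayed low. Hspa1a had 123 counts with vehicle, 121 with IL-6 and 160 with OSM, and Hspa1b had 101, 70 and 145, which is between 0.922 and 1.81 FPKM for both genes. They are near-identical copies of each other over 74.0% and 78.5% of their transcripts, so that their reads are best summed. The sums were 224, 191 and 305 counts, with a log2 fold change of 0.20 (-0.06 to 0.45) for OSM against vehicle. That interval leaves out a 1.5-fold difference in either direction, as far as counting error goes. The summed log2 fold change was -0.33 (-0.62 to -0.04) for IL-6 against vehicle and 0.53 (0.27 to 0.80) for OSM against IL-6. Those intervals leave out 0 but not a 1.5-fold difference. Hspa1l, their neighbour, known from the testis, had 53, 32 and 74 counts. Hspa8, which carries most cytosolic HSP70 work in unstressed cells, had 329, 318 and 393 FPKM (log2 0.25, 0.23 to 0.27), with 87.9% of its transcript copied elsewhere, mainly in pseudogenes.

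Of the 14 members of the HSP70 and HSP110 family, 3 were called lower at 1.5-fold, against 12.0% of all genes. Hspa4l, an HSP110 type exchange factor, had 1808 counts with vehicle, 2202 with IL-6 and 1053 with OSM, and its log2 fold change for OSM against vehicle was -1.03 (-1.14 to -0.92). The OSM library was low, and the IL-6 library lay above vehicle. Hspa12a, a distant relative of HSP70 genes, had 282, 330 and 160 counts (log2 -1.07, -1.35 to -0.78). Hspa12b, known mainly from endothelial cells, had 26, 15 and 9 counts (log2 -1.78, -3.06 to -0.64), so that its size is poorly known. The part of endothelial cells in this difference was not tested. Of the other HSP110 genes, Hsph1 had 15.2, 14.9 and 11.9 FPKM (log2 -0.36, -0.44 to -0.28) and Hspa4 had 51.1, 50.8 and 50.4 FPKM (log2 -0.03, -0.07 to 0.02). The testis-enriched Hspa2 was at 3.83, 3.61 and 3.51 FPKM with an interval that covered 0. Over the 14 members of the family the median was -0.08, with 6 above 0 and 8 below.

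The HSP90 genes differed by at most 0.20 on the log2 scale between OSM and vehicle. Hsp90ab1 had 739, 751 and 784 FPKM (log2 0.08 for OSM against vehicle) and Hsp90aa1, the inducible cytosolic form, had 111, 105 and 128 FPKM (log2 0.20, 0.16 to 0.24, and 0.29 against IL-6). Of the Hsp90aa1 transcript 78.6% is copied elsewhere. Hsp90b1 had 475, 468 and 437 FPKM (log2 -0.13). The chaperonin genes of mitochondria, which share the upstream region with the heat shock element, differed slightly from each other. They overlap by 112 bases on opposite strands, and whether strand entered the counting is not stated. Of the Hspe1 transcript 69.3% has near-identical copies. Hspe1 (HSP10, the lid) had 58.0, 66.2 and 75.3 FPKM (log2 0.37, 0.29 to 0.45), and Hspd1 (HSP60, the barrel) had 12798, 13931 and 14520 counts (log2 -0.07, -0.10 to -0.03). Of the Hspd1 transcript 92.2% has near-identical copies, and its pseudogene Hspd1-ps3 had 383, 481 and 281 counts, which is small beside the counts of Hspd1.

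The members listed for the ER, which serve secreted and membrane proteins, were mostly slightly below vehicle with OSM. The list of 9 was chosen by gene name and may leave out others. Of these 9, 2 lay above 0 and 7 below, with a median of -0.16 and a range of -0.39 (Hspa13) to 0.15 (Dnajb11). Hspa5 had 1278, 1299 and 1377 FPKM (log2 0.10, 0.09 to 0.11). Dnajb9, a BiP partner and a sensitive reporter of ER stress, had 205, 217 and 184 FPKM (log2 -0.16, -0.19 to -0.12), and Dnajc3, another BiP partner that restrains the kinase PERK, had 60.4, 61.9 and 56.6 FPKM (log2 -0.10). Of the 3 genes with the ER stress element, Hspa5 was thus slightly above vehicle and Hsp90b1 and Dnajc3 slightly below. A list of 7 mitochondrial members, chosen in the same way and perhaps not complete, ranged from -0.15 for Hspa9 to 0.44 for Dnajc15. Its median was 0.12.

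**Figure D3:**
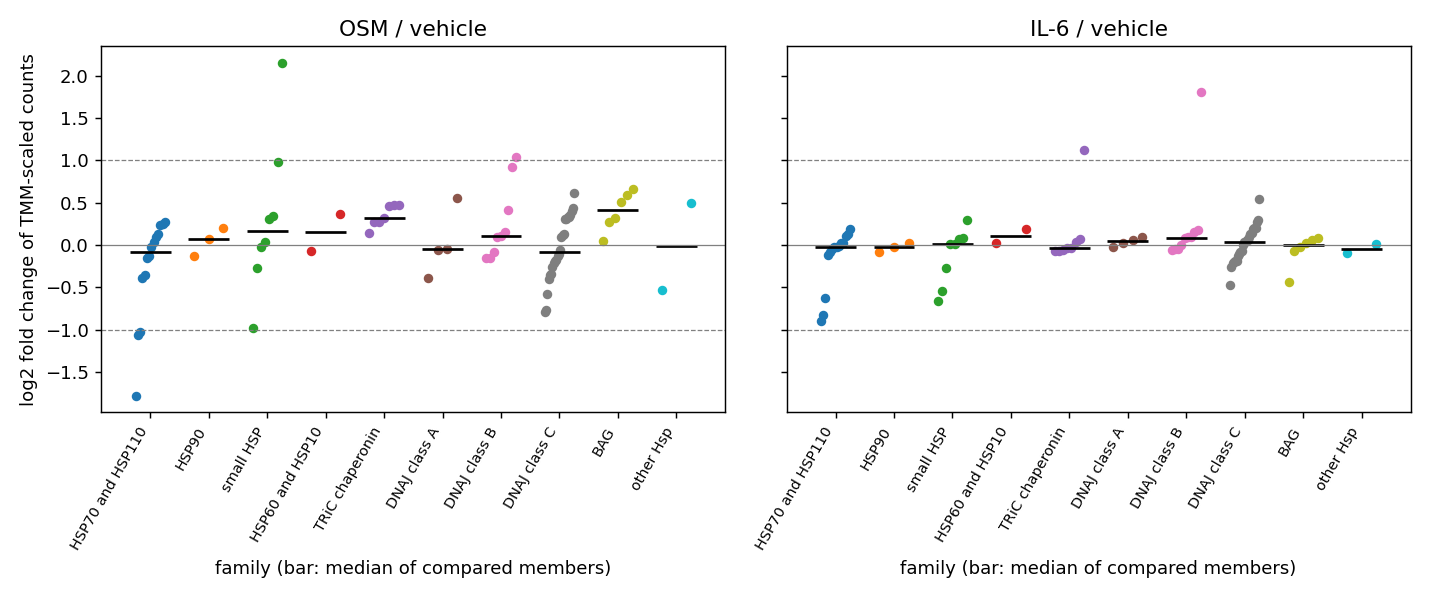
Log2 fold change of compared chaperone genes by family, for OSM against vehicle (left) and IL-6 against vehicle (right), with a bar at the family median and dashed lines at 2-fold. For OSM the medians of BAG (0.42) and TRiC (0.32) lie highest, and for IL-6 the medians lie near 0, the high points on the right being Dnajb3 and Cct6b with at most 15 counts in a library.

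All 7 compared genes of TRiC, the cytosolic chaperonin that folds actin and tubulin, were above vehicle with OSM. Their log2 fold changes were 0.14 for Cct8, 0.27 for Cct2 and Cct4, 0.32 for Cct6a, 0.46 for Cct3 and 0.47 for Cct5 and Cct7. The median was 0.32, and 49.9% of all compared genes lay above 0. None was called at 1.5-fold. Tcp1, which encodes the remaining subunit of the ring and is outside the symbol rule, had 6272, 6587 and 7739 counts (log2 0.06), and with it 8 of 8 lay above 0 with a median of 0.30. The summed level of the 8 was 526 FPKM with vehicle, 521 with IL-6 and 655 with OSM. Counts of the 7 with vehicle ran from 5420 for Cct6a to 7421 for Cct2. Per length they ran from 35.3 FPKM for Cct7 to 115 FPKM for Cct2, on annotated lengths of 6778 and 2557 bases. The testis genes Cct6b and Cct8l1 were nearly silent, at up to 7 and 2 counts. Cct5, which has a STAT site, was at 96.6, 92.2 and 135 FPKM.

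All 6 BAG genes also lay above vehicle with OSM, with a median of 0.42. Bag3, whose protein links HSP70 and HSPB8 to autophagy at the Z-disc, had 8577 counts with vehicle, 8781 with IL-6 and 16083 with OSM (log2 0.66, 0.62 to 0.70). Bag1, an exchange factor of HSP70, had 158, 165 and 226 FPKM (log2 0.51, 0.46 to 0.56). Bag4 (log2 0.59, 0.31 to 0.87) was expressed at about 1 FPKM only. Bag2, an inhibitor of the ubiquitin ligase CHIP, was at 0.32 (0.24 to 0.40), Bag5 at 0.27 (0.13 to 0.42), and Bag6, which guards tail-anchored membrane proteins, at 0.04, with an interval that covered 0. Bag3 was thus the only BAG gene called, at 1.5-fold.

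The DNAJ genes, which choose the clients of HSP70, moved in both directions. Dnajb5, a class B member of the heart studied in redox control of hypertrophy, had 1319 counts with vehicle, 1575 with IL-6 and 3225 with OSM. Its log2 fold change was 1.04 (0.95 to 1.14), just short of a call at 2-fold. Dnajb1, the main heat-inducible partner of HSP70, had 285, 345 and 640 counts (log2 0.92, 0.72 to 1.13), which is 3.52, 3.97 and 6.69 FPKM. Dnaja1, a farnesylated partner of HSP70, was at 6.15, 6.43 and 9.08 FPKM (log2 0.55, 0.46 to 0.65), and the abundant Dnajb4 had 8034, 8340 and 10217 counts (log2 0.10). Class A had 4 compared members with a median of -0.05, class B 9 with 0.11, and class C 24 with -0.08. Within class C, 11 lay above 0 and 13 below, from Dnajc13 at -0.79 to Dnajc17 at 0.62.

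Of the 24 compared class C genes, 2 were called lower at 1.5-fold, against 12.0% of all genes. Dnajc13, which works on endosomes, had 1770 counts with vehicle, 2189 with IL-6 and 1213 with OSM (log2 -0.79, -0.90 to -0.69). Dnajc28 had 974, 1118 and 679 counts (log2 -0.77, -0.91 to -0.62). In both, as in Hspa4l and Hspa12a, the OSM library was the lowest. For IL-6 against vehicle, Dnajc13 was at 0.21 (0.12 to 0.30) and Hspa4l at 0.18 (0.09 to 0.28). The intervals of Dnajc28 (0.10, -0.03 to 0.22) and Hspa12a (0.13, -0.11 to 0.36) covered 0. Of the 5 compared members with a STAT site, Cct5 lay above vehicle with OSM. Dnajc13, Dnajc16 (log2 -0.58), Dnajc27 (-0.22) and Dnajc12 (-0.19) lay below, with an interval for Dnajc12 that covered 0. Of all compared genes, 49.9% lay above 0, and a link of the site with the differences was not tested.

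The fold changes for OSM were lower in longer genes, among the members and among all protein-coding genes. Spearman's rho of the log2 fold change with the length of the gene in the authors' annotation was -0.35 over 80 members and -0.39 over 12706 compared protein-coding genes, and for IL-6 against vehicle it was 0.02 over 82 members. These are descriptions across genes, which share their libraries and are not independent replicates. The members' median was 0.30 in the 27 shortest (up to 2803 bases), 0.10 in the 27 of middle length and -0.08 in the 26 longest (5088 to 15741 bases). With the trend over protein-coding genes taken away, Hspb1 came to 1.65, Dnajb5 to 1.16, Dnajb1 to 0.78, Bag3 to 0.44 and Hspb2 to 0.43. Hspa4l, of 11501 bases, came to -0.52, Dnajc13, of 11938 bases, to -0.26, and Hspa12a, of 9192 bases, to -0.70, whereas Dnajc28 (3565 bases) came to -0.87. Of the members called at 1.5-fold, Hspb2, Dnajb1, Bag3, Hspa4l, Hspa12a and Dnajc13 then lost the call, Cct7 and Dnaja1 gained it, and Hspb1, Dnajb5, Hspa12b and Dnajc28 kept it. The medians became 0.25 for TRiC, 0.17 for BAG, -0.04 for the listed mitochondrial members and 0.01 for all members. Hspe1 came to -0.04. Within TRiC, Cct2 came to 0.06 and Cct8 to -0.01, so that not all of its compared genes stayed above 0. The part of gene length in these differences was not tested beyond this.

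**Figure D4:**
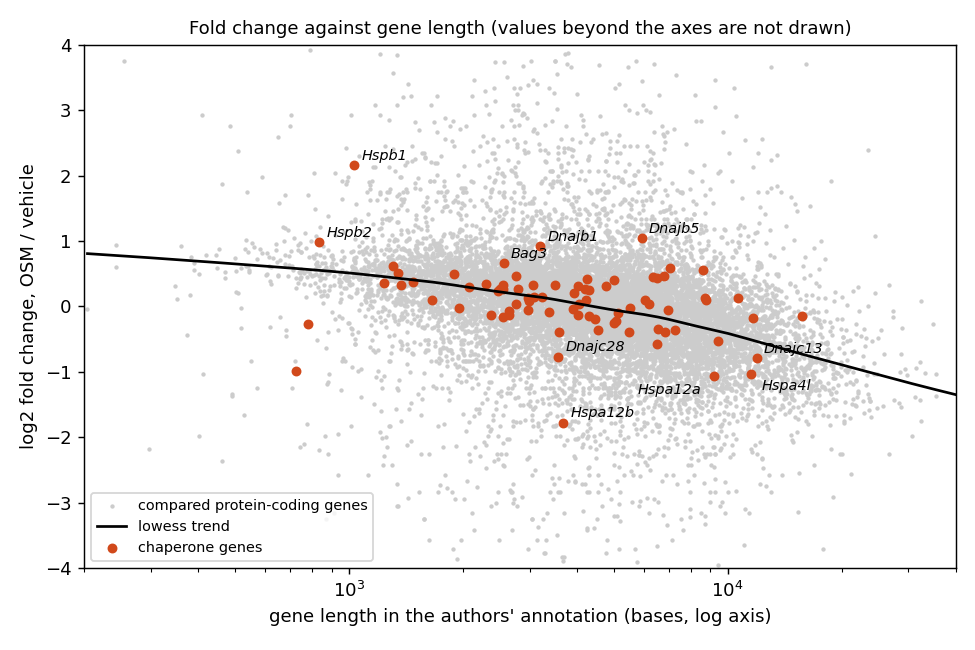
Log2 fold change of OSM over vehicle against gene length (bases, log axis) for chaperone genes (orange) and compared protein-coding genes (grey), with the lowess trend in black. The trend falls with length, Hspb1 and Dnajb5 lie well above it, and Dnajc13 and Hspa4l lie near or moderately below its low end.

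IL-6 left the chaperone genes near their vehicle levels. Of 82 compared members, 0 were called higher and 0 lower at 2-fold, against 1.77% and 1.74% of all 15472 compared genes, and at 1.5-fold 0 and 0, against 2.95% and 2.88%. The median was 0.01, with 43 above 0 and 39 below. Of the 77 members with at least 100 counts over both libraries, 72 lay within 0.3 of 0 on the log2 scale. The outermost were Hspb3 at -0.66 (-0.98 to -0.33) and Dnajc24 at 0.55 (0.16 to 0.94), on 134 against 197 and 144 against 92 counts. Hspb1, Bag3 and Dnajb5 were at 0.01, -0.07 and 0.16.

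The comparison of OSM with IL-6 shares the OSM library with the one against vehicle and is no independent support for it. At 2-fold, 2 of 82 members were called higher, Hspb1 at 2.15 and Hspb2 at 1.25 (1.13 to 1.37), against 4.24% of all 15544 compared genes. Of the 82, 1 was called lower, Hspa4l at -1.21 (-1.31 to -1.10), against 5.44%. With the length trend removed Hspa4l lost this call at -0.72, Hspb2 lost it at 0.71, and Dnajb3, on few counts, was called lower in its place. At 1.5-fold, 6 were called higher (Hspb1, Hspb2, Bag3, Bag4, Dnajb5 and Dnajc17), against 8.76%, and 5 lower (Hspa4l, Hspa12a, Dnajc13, Dnajc28 and Dnajb3), against 11.9%. Dnajb3 had 4, 15 and 2 counts. The median was 0.10.

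The co-chaperones and other folding genes outside the symbol rule had a median above that of the members, a difference that was not tested. Of 40 genes, among them heat shock factors, prefoldin and HSP90 co-chaperones, 29 lay above 0 and 11 below for OSM against vehicle, with a median of 0.23, or 0.15 with the length trend taken away. Of these, 1 was called higher at 2-fold, Cryab, against 3.70% of all genes, and 0 lower, against 5.46%. With the length trend taken away Cryab came to 0.75, which is below 2-fold. For IL-6 against vehicle the median was 0.02, with 0 called.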

How the data were processed

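RNA from pooled ACMs was measured by RNAseq in 1 library per condition, and groups were taken from the sample labels. Per the paper and the submitters' processing notes, read pairs were aligned to GRCm39 and counted over genes by featureCounts. The notes name fastp, HISAT2 2.2.1, featureCounts 2.0.6 and edgeR 4.0.16, and the paper names other versions of the last tools. The authors deposited raw counts, as whole numbers, and their own FPKM values beside them. Gene length, coordinates and biotype are columns of the authors' annotation. Every per-sample column matched a sample.

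TMM factors were computed for each pair of libraries with edgeR 4.0.16 in R 4.3.3. The log2 ratio of scaled counts carries a 95% Clopper-Pearson interval, conditional on the total of both counts, for counting error only. A minimum of 10 counts over both libraries applied, and no P-value is given because there are no replicates. The length trend is a lowess (statsmodels 0.14.6, span 0.3). Copies were sought with BLAST 2.17.0+ (at least 97% identity over 100 bases). Named genes were the members called at 2-fold in any comparison or at 1.5-fold for OSM against vehicle, the 10 highest in FPKM with vehicle, core members of each family, and called co-chaperones. Some others (Dnajc17, Dnajc24, Dnajc15, Dnajb11, Hspa13, Hspa1l, Hspb9 and Hspb11, and members that carry a motif, lack counts or end a range) were named after their values were seen. Members, lists and rules were chosen with earlier results of these data known. DESeq2 1.42.0 factors and other alternatives are given in the closing section. Of the members, 1 is not reported here by name or in the figures, though it enters the counts and medians.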

Additional observations from a re-analysis of the deposited data

How the results depend on the processing

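Under the 8 alternatives that give a median, the members' median log2 fold change ran between 0.01 and 0.12 for OSM against vehicle. It ran between 0.00 and 0.03 for IL-6 against vehicle, and 0.02 and 0.14 for OSM against IL-6. All lay between the medians of the members' lower and upper interval bounds (-0.05 and 0.20 for OSM against vehicle). Those bounds are as wide as for a single gene and are no interval of the median. For OSM against vehicle the lowest, 0.01 against 0.10, came with the length trend removed. For OSM against vehicle, members called higher (1) became 2 with the length trend removed, 2 by the point estimate alone, 5 at 1.5-fold and 0 by edgeR's exact test with an assumed BCV of 0.4, and members called lower (0) became 3 by the point estimate and 5 at 1.5-fold. For IL-6 against vehicle, members called higher (0) became 2 by the point estimate. For OSM against IL-6, members called higher (2) became 1 with the length trend removed, 5 by the point estimate, 6 at 1.5-fold and 0 with a BCV of 0.4, and members called lower (1) became 2 with total counts alone, 3 by the point estimate, 5 at 1.5-fold and 0 with a BCV of 0.4. With the length trend removed and the rule at 1.5-fold, a setting chosen after seeing the data, 4 were called higher and 2 lower for OSM against vehicle, and 7 higher and 3 lower for OSM against IL-6. No value called at 2-fold changed sign, which covers only Hspb1 and, for OSM against IL-6, also Hspb2 and Hspa4l. Values that were not called could change sign. For OSM against vehicle, Hspa1a went from 0.13 to -0.04 with the length trend removed. The Hspb1 log2 fold change for OSM against vehicle ran from 1.65 to 2.17. The alternatives were other factors, other count minimums, a 99% interval, a BCV of 0.2 and log2 of FPKM. No paired analysis was possible because each condition has 1 library and the labels give no replicate numbers, and no library could be left out for the same reason. Depth limits members under about 100 counts, such as Hspa12b and Hspb9.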
